A study of Drosophila melanogaster with 8 samples.

Results

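The Highwire, Wallenda and JNK pathway was followed here through 10 genes: the E3 ubiquitin ligase gene hiw, the kinase genes wnd, slpr, msn, hep and bsk, the phosphatase gene puc, the AP-1 subunit genes kay and Jra, and the ligand gene egr. They were chosen by FlyBase symbol from the 14175 gene identifiers in the files, all 10 were present, and all 10 passed the filter on low counts that left 9176 genes for testing. RNA came from ventral nerve cords of female Drosophila melanogaster larvae at the wandering stage of the third instar, in a w1118 background. Mutants had the genotype w;;witA12,st1/witB11,st1 and controls w;;witA12,st1/+, so controls also carried 1 mutant allele of wit, the gene of a type II BMP receptor. Each genotype had 4 biological replicates of 25 pooled nerve cords without brain lobes, from larvae raised at 25 °C. Both alleles lie on chromosome 3, and mutants and controls differ in 1 whole copy of that chromosome.

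In fly motor neurons, Highwire keeps the protein level of Wallenda low by marking it for degradation, and loss of Highwire lets neuromuscular synapses overgrow. Wallenda, a MAP kinase kinase kinase of the dual leucine zipper family, acts through the JNK encoded by bsk and the Fos protein encoded by kay, and its protein level rises after axon injury. The BMP receptor encoded by wit is itself needed for growth of the same synapses. The comparison asks whether RNA of this second growth pathway, in whole nerve cords, differs between the wit genotypes. A change confined to motor neurons could be masked by RNA from the other cells of these samples. Messenger RNA does not report the protein level of Wallenda or the phosphorylation of JNK.

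Libraries held between 20923717 and 32740480 estimated counts, and the 10 genes between 737 and 23876 counts in any library. Values are CPM, counts scaled to library totals corrected by TMM, and a gene was called at an edgeR adjusted p under 0.05. The wit transcript itself was at 82.1, 85.2, 89.1 and 91.0 CPM in mutants and 89.8, 86.6, 91.0 and 94.9 CPM in controls, which overlap (edgeR adjusted p = 0.371). The molecular lesions of both alleles are not in the labels, so this level is no check of the genotype. Mutant replicate 1 lay apart from the other mutants on the second principal component, which held 14.3% of the variance, so values without it stand beside the results that rest on it. Of the neuronal markers 6 of 10 tested fell and 0 rose, where 8.66% of all tested genes fell and 6.12% rose, with summed levels of 6070 to 6796 CPM in mutants and 7469 to 7741 CPM in controls. Of the glia markers 5 of 14 fell and 0 rose, with sums of 2288 to 2740 CPM in mutants and 3033 to 3097 CPM in controls. The largest falls in CPM were of Gs2 (mean 285 in mutants, 568 in controls) and Gat (207 and 323). The glia marker repo (108 and 113 CPM) did not pass. Hemocyte markers summed to 165 to 197 CPM in mutants and 265 to 288 CPM in controls, and 3 of 8 tested fell. Most of that sum's fall lay in the collagen genes vkg (mean 41.2 CPM in mutants, 86.1 in controls) and Col4a1 (63.5 and 102). The hemocyte markers Pxn (54.3 and 57.4 CPM) and Hml (1.47 and 1.94 CPM) did not pass. When 1 library was left out, the numbers that fell were 3 to 7 neuronal, 2 to 5 glia and 1 to 2 hemocyte markers. Each other marker list is given by its counts in the methods. The falls were not shared by all markers, as 4 neuronal, 9 glia and 5 hemocyte markers did not pass with all libraries. In these bulk samples fewer cells of a type and less RNA of single genes per cell cannot be told apart.

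No difference between wit mutants and controls was detected for any of the 10 genes with all libraries, and 1, msn, passed the test when mutant replicate 1 was left out (log2 fold change 0.20, edgeR adjusted p = 0.0255). By edgeR with all libraries 0 of 10 were called, where 14.8% of all tested genes were (6.12% higher and 8.66% lower), and 0 of 10 had an unadjusted p under 0.05, where 30.2% of all tested genes had one. DESeq2's Wald test and limma-voom each called 0 of the 10 as well, against 14.5% and 23% of the genes they tested. In edgeR fits with the replicate number as a block or with 1 surrogate variable, 0 of the 10 were called, against 9.31% and 18.7% of tested genes. The mutant and control ranges overlapped for all 10, while they did not overlap for 20.5% of tested genes. Log2 fold changes ran from -0.03 for slpr to 0.11 for msn, with 7 above 0 and 3 below. Their median size regardless of sign was 0.02, against 0.09 over all tested genes and 0.07 over the 3933 tested genes with mean levels between the lowest and the highest of the 10. Of those 3933 genes 15.7% were called. For 9 of the 10 genes the 95% interval of the log2 fold change stayed within 0.17 of 0 on either side, and for msn it reached 0.33, which is 1.255-fold. For scale, Dad, the inhibitory Smad gene induced by BMP signalling, was at 44.4 ± 1.98 CPM in mutants and 64.6 ± 3.83 CPM in controls (SD, n = 4 each; log2 fold change -0.54, edgeR adjusted p = 2.62e-05). Dad was 1 of 3 listed BMP targets, chosen with earlier results of these data known, and all 3 fell.

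**Figure D1:**
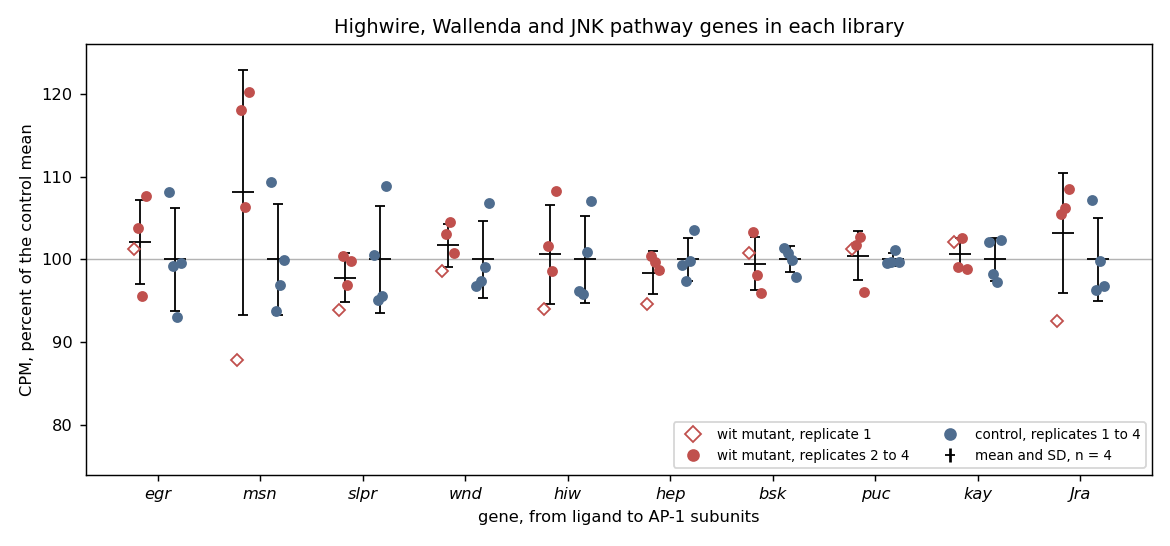
Levels of the 10 genes in each of the 4 wit mutant and 4 control libraries, as a percent of the gene's control mean, with mean and SD. Mutant and control points overlap for every gene, and mutant replicate 1 (open diamonds) is far below the other mutants for msn and below them for Jra.

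Highwire and Wallenda, the ligase and its substrate kinase, were first set side by side. The hiw gene (FBgn0030600, chromosome X, 15010137 to 15063429, minus strand) was at 508, 549.8, 533 and 585 CPM in mutants and at 520.3, 518, 546 and 579 CPM in controls. The lowest and the highest of the 8 values were both from mutants. Its mean was 544 ± 32.4 CPM in mutants and 541 ± 28.3 CPM in controls, and the log2 fold change of 0.01 (SE 0.05, edgeR adjusted p = 0.927) had a 95% interval of -0.10 to 0.12. The wnd gene (FBgn0036896, chromosome 3L, 19624406 to 19635783, minus strand) was at 113, 118, 120.2 and 116 CPM in mutants, against 111, 112, 114 and 123 CPM in controls. The single highest value was from control replicate 4 and the single lowest from control replicate 1, so the mutants lay inside the control range. For wnd the log2 fold change was 0.02 (SE 0.04), at an edgeR adjusted p of 0.717, with an interval of -0.06 to 0.11.

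Counts of wnd and hiw were also compared within each library, where scaling between libraries plays no part. Each library pools many cells, so the ratio is not one within single cells. The count of wnd divided by that of hiw was 0.223, 0.215, 0.225 and 0.198 in mutants and 0.214, 0.216, 0.209 and 0.212 in controls. These means were 0.215 ± 0.012 in mutants and 0.213 ± 0.003 in controls (SD, n = 4 each). The mutant range held the whole control range.

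The other upstream kinases act on separate inputs to JNK. Slipper, a mixed-lineage MAP kinase kinase kinase, is encoded by slpr (FBgn0030018, chromosome X, 8170229 to 8177185, minus strand), which was at 54.8, 58.5, 56.5 and 58.2 CPM in mutants and at 58.6, 55.4, 55.7 and 63.5 CPM in controls. Control replicate 4 was highest and mutant replicate 1 lowest, and the other values of both genotypes interleaved between them. Relative to controls slpr had a log2 fold change of -0.03 (interval -0.14 to 0.07, SE 0.05), with an edgeR adjusted p of 0.687. An exon of slpr shares 38 of 5615 exonic bases with the gene CG2278 on the same strand, in the annotation used here.

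Misshapen, a Ste20-type kinase at the top of the JNK cascade in dorsal closure, was the most variable of the 10. Its gene msn (FBgn0010909, chromosome 3L, 2554847 to 2586540, minus strand) was at 593, 796, 718 and 812 CPM in mutants and at 738, 633, 654 and 675 CPM in controls. Mutant replicate 1 was the lowest of all 8 libraries, while mutant replicates 2 and 4 were above every control and mutant replicate 3 was below control replicate 1. The mean was 729.8 ± 99.99 CPM in mutants and 675 ± 45.4 CPM in controls, and the log2 fold change of 0.11 (SE 0.10, edgeR adjusted p = 0.472) had an interval of -0.10 to 0.33. Without mutant replicate 1, msn passed the test, with a log2 fold change of 0.20 and an edgeR adjusted p of 0.0255, and it was then the 1 called gene of the 10, in a comparison that called 23.6% of the genes tested, with 11.4% called higher. With 1 surrogate variable in the model, and all 8 libraries, its log2 fold change was -0.0020 (edgeR adjusted p = 0.978). Adjusted p-values over all 15 alternatives ran from 0.0255 to 0.978. A call for msn thus came only without mutant replicate 1, and its sign turned only with the surrogate variable, while leaving out 1 library gave log2 fold changes of 0.061 to 0.20.

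The summed level of tracheal markers shared some, but not all, of its extremes with msn. The 6 measured markers summed to 287, 349, 332 and 403 CPM in mutants and to 312, 286, 284 and 285 CPM in controls. Among mutants replicate 1 was lowest and replicate 4 highest for both msn and this sum, and among controls replicate 1 was highest for both. The lowest control was replicate 2 for msn and replicate 3 for the sum. Outside the tracheal list, the glia marker loco had the same extremes as msn, at 51.6, 64.2, 60.5 and 71.1 CPM in mutants. In controls loco was at 62.9, 54.7, 58.1 and 55.3 CPM, and Mmp1, given below, also had the same extremes as msn. Gasp, serp, verm, trh and uif were each lowest among mutants in replicate 1, while Cht2 was highest there, at 49.3 CPM. The widest mutant range was that of uif, from 93.9 CPM in replicate 1 to 168 CPM in replicate 4. Its highest control was replicate 3, at 105 CPM, and the highest mutant for Gasp was replicate 2, at 22.5 CPM. For serp, verm and trh the highest mutant was replicate 4 and the highest control replicate 1. How many of all tested genes share the extremes of msn was not counted. In control replicates 2, 3 and 4 msn was at 633, 654 and 675 CPM while the sum stayed between 284 and 286 CPM. Of the 6 markers, none of them at 0, only Gasp passed the test, at 17.8 ± 3.63 CPM in mutants and 11.8 ± 2.05 CPM in controls (edgeR adjusted p = 0.0457). The part of tracheal RNA in the level of msn was not tested.

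Hemipterous and Basket form the lower kinase steps, MAP kinase kinase and JNK. The hep gene (FBgn0010303, chromosome X, 13079205 to 13090434, minus strand) was at 111, 118, 117 and 116 CPM in mutants and at 117, 114, 117 and 122 CPM in controls. Mutant replicate 1 was lowest and control replicate 4 highest, and the fitted change of -0.02 on the log2 scale had an interval of -0.10 to 0.05 (SE 0.03, edgeR adjusted p = 0.687). The bsk gene (FBgn0000229, chromosome 2L, 10247502 to 10250501, minus strand) was at 183, 187, 178 and 174 CPM in mutants, against 184, 183, 181 and 178 CPM in controls. Controls lay inside the mutant range, and the log2 fold change of -0.01 (SE 0.03, edgeR adjusted p = 0.909) had an interval of -0.08 to 0.07. Counts of bsk over hep were 1.65, 1.59, 1.52 and 1.501 in mutants and 1.58, 1.60, 1.55 and 1.46 in controls, which overlap.

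Puckered is a dual-specificity phosphatase that inactivates Basket, and as its gene is switched on by JNK and AP-1, a puc reporter is a usual readout of JNK activity and of injured axons in flies. The puc gene (FBgn0243512, chromosome 3R, 8105332 to 8122294, plus strand) was at 52.8, 53.1, 53.6 and 50.1 CPM in mutants and at 51.9, 52.0, 52.8 and 52.0 CPM in controls. The mutants held both the highest and the lowest value, and the controls spanned only 0.827 CPM. Its mean was 52.4 ± 1.54 CPM in mutants and 52.2 ± 0.399 CPM in controls (log2 fold change 0.01, SE 0.03, edgeR adjusted p = 0.926). The interval of -0.07 to 0.08 corresponds to a change between -4.71% and 5.87%. The count of puc over that of bsk was 0.289, 0.283, 0.301 and 0.288 in mutants and 0.282, 0.284, 0.291 and 0.293 in controls, which again overlap.

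The AP-1 genes encode Fos and Jun, which pair to bind DNA downstream of JNK. The Fos gene kay (FBgn0001297, chromosome 3R, 29765995 to 29794113, plus strand) was at 192, 186, 193 and 186 CPM in mutants and at 192, 185, 183 and 193 CPM in controls. Both genotypes had 2 libraries near the top and 2 near the bottom of this narrow range, and the log2 fold change of 0.01 (SE 0.03, edgeR adjusted p = 0.884) had an interval of -0.06 to 0.08. The Jun gene Jra (FBgn0001291, chromosome 2R, 10096480 to 10098556, plus strand) was at 34.9, 39.8, 40.1 and 40.9 CPM in mutants, against 40.4, 36.3, 37.6 and 36.5 CPM in controls. Mutant replicate 1 was again the lowest of the 8, and 3 mutants lay above 3 of the 4 controls. For Jra the log2 fold change of 0.05 (SE 0.06, edgeR adjusted p = 0.598) had an interval of -0.07 to 0.17, and without mutant replicate 1 it was 0.09 (edgeR adjusted p = 0.152). Counts of kay over Jra were 5.50, 4.69, 4.82 and 4.55 in mutants and 4.75, 5.09, 4.87 and 5.28 in controls, which overlap, and mutant replicate 1 was the highest of the 8. Jra shares 39 of 1642 exonic bases with RpLP0-like on the opposite strand, and no source used here says whether the counting used strand.

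Eiger is the TNF ligand that activates JNK through receptors on the receiving cell. The egr gene (FBgn0033483, chromosome 2R, 10078366 to 10084210, plus strand) was at 73.0, 74.8, 68.9 and 77.6 CPM in mutants and at 78.0, 71.5, 67.1 and 71.7 CPM in controls. The controls held both extremes, and the log2 fold change of 0.03 (SE 0.05, edgeR adjusted p = 0.737) had an interval of -0.08 to 0.14. Its receptor genes wgn and grnd, named after their values were seen, were at 23.2 and 2.04 CPM in mutants and at 22.3 and 2.09 CPM in controls, with log2 fold changes of 0.05 and -0.03 that did not pass the test (edgeR adjusted p = 0.536 and 0.951).

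**Figure D2:**
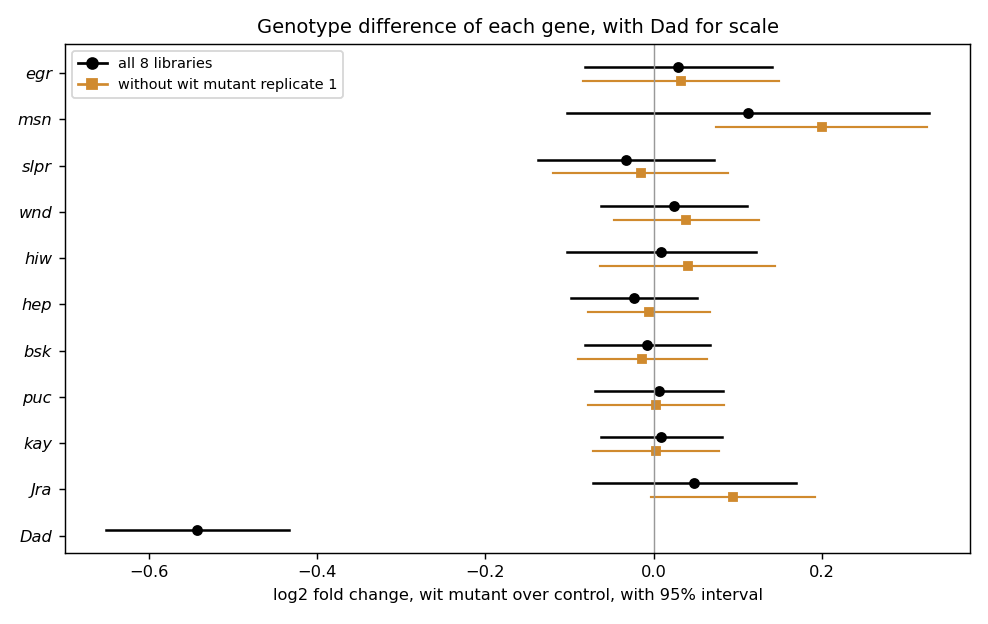
Log2 fold changes of mutant over control with 95% intervals for the 10 genes, from all 8 libraries (black) and without mutant replicate 1 (orange), with Dad from all 8 libraries for scale. Intervals cross 0 for all 10 genes with all libraries, and msn alone is clear of 0 without mutant replicate 1, at 0.20, while Dad is at -0.54.

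The spread between libraries was small for most of these genes. The SD was under 10% of the mean in both genotypes for 9 of the 10, and for msn it was 13.7% of the mean in mutants and 6.73% in controls. For puc it was 2.94% in mutants and 0.764% in controls, where counting error at its depth alone gives 2.62%. Mutant replicate 1 was the lowest mutant for 6 genes (hiw, wnd, hep, slpr, msn and Jra) and the highest for 0, while over all tested genes it was the lowest mutant for 33.1% and the highest for 34.5%. Without it, log2 fold changes of the other 9 genes ran from -0.02 for slpr to 0.09 for Jra, and 0 of these 9 were called.

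Levels were compared between genes as CPM per kilobase of mean annotated transcript length. The order over all 8 libraries was msn at 136, bsk at 109, kay at 48.8, egr at 33.8, hiw at 32.97, wnd at 27.5, Jra at 24.9, hep at 24.1, puc at 19.6 and slpr at 11.1. The ranges over the 8 libraries overlapped between egr and hiw, between wnd and Jra and between Jra and hep. Whether those neighbours differ within libraries was not tested. The order was the same when the longest transcript was used. The abundant hiw counts thus came with a long transcript: in mutants hiw was at 544 CPM and wnd at 117 CPM, but per kilobase they were at 33.1 and 27.8. Per kilobase, msn was at 142 ± 19.4 in mutants and 131 ± 8.82 in controls, and slpr at 10.9 ± 0.333 in mutants and 11.2 ± 0.718 in controls (SD, n = 4 each).

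**Figure D3:**
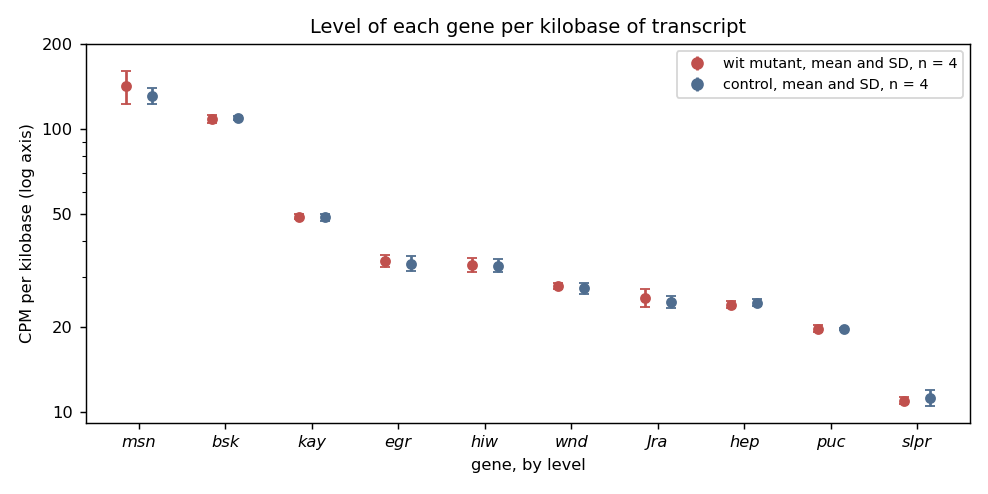
CPM per kilobase of mean transcript length for the 10 genes on a log axis, as mean and SD of 4 mutant and 4 control libraries. The order from msn at 136 to slpr at 11.1 is the same in mutants and controls, and their SD bars overlap at every gene.

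The 10 genes lie on 3 chromosomes, and the genotypes differ in a copy of chromosome 3. On that chromosome lie wnd, msn, puc and kay, where 15.2% of tested genes were called, against 15% on chromosome 2 and 12.9% on chromosome X. The log2 fold changes of these 4 genes were 0.02, 0.11, 0.01 and 0.01. The loss of wit came with the exchange of that copy in every mutant library, so they cannot be told apart for genes on any chromosome.

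Around the 10 genes, 6 lists of related genes held 65 tested genes, of which 10 rose and 2 fell, or 18.5% beside the background of 14.8%. Without mutant replicate 1 the number called was 21, in a fit that called 23.6% of all tested genes, and it was 7 without mutant replicate 2 or 3 or control replicate 2 or 3. In the fits with 7 calls, the calls over all tested genes were also fewer, at 304 to 361 higher and 524 to 606 lower. With all libraries those were 562 and 795. The count therefore moved with single libraries, and so did the count over all tested genes. Neuronal and glial marker sums moved with genotype as given above, and their part in these calls was not tested.

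Of 3 tested partners of Highwire 2 rose in mutants, and the call of only 1 of them, Fsn, held in every alternative run. Of all tested genes 6.12% rose, and the list median was 0.11 against 0.01 over all tested genes. Fsn, the F-box protein that works with Highwire in lowering Wallenda, was at 52.5, 53.4, 52.7 and 53.8 CPM in mutants and at 47.4, 49.0, 48.2 and 47.8 CPM in controls. All mutants were above all controls, and Fsn rose by 0.14 on the log2 scale (SE 0.03, edgeR adjusted p = 0.0128), and adjusted p-values over the 15 alternatives were 0.00819 to 0.0478. Fsn shares 77 of its 1396 exonic bases with CG17059 and 27 with Dp, both on the opposite strand. SkpA, a Skp1 protein of such ligase complexes, was at 251 ± 4.90 CPM in mutants and 233 ± 4.54 CPM in controls (log2 fold change 0.11, edgeR adjusted p = 0.0401). Its call was lost without mutant replicate 2 or 3 or control replicate 2, 3 or 4 (0.0845 to 0.115). With all libraries it was also lost in edgeR without a filter on low counts (adjusted p = 0.0544) and with the replicate block (0.0699). Rae1, which binds Highwire and protects it, had a log2 fold change of 0.08 (edgeR adjusted p = 0.325).

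The other JNK kinases and upstream regulators held no called gene. Of 22 tested 0 were called by edgeR and 3 had an unadjusted p under 0.05, where 30.2% of all tested genes had one, with a list median of 0.05. The abundant scaffold gene Cka had 0.06, the GTPase gene Cdc42 had 0.0050 and the ubiquitin-conjugating enzyme gene ben had 0.06 as log2 fold change. Without mutant replicate 1, where 11.4% of all tested genes rose, 4 of the 22 rose: Src64B (0.26), Rac2 (0.21), Tab2 (0.20) and the MAP kinase kinase gene Mkk4 (0.12), named after their values were seen, with edgeR adjusted p between 0.00340 and 0.0492. With all libraries Src64B was at 287, 411, 373 and 399 CPM in mutants and at 355, 304, 321 and 336 CPM in controls, so that mutant replicate 1 was lowest of all, as for msn. Of 7 tested genes of the ERK and p38 modules 0 passed and 0 had an unadjusted p under 0.05, with -0.05 for the ERK gene rl, 0.02 for the MAP kinase kinase gene Dsor1 and -0.04 for the scaffold gene ksr.

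Of 8 genes of axon degeneration and its clearance 2 rose and 0 fell, where 6.12% of all tested genes rose and 8.66% fell, with a list median of -0.0011. When 1 library was left out, 1 to 3 rose and 0 to 1 fell. Naprt, an enzyme of NAD synthesis from nicotinic acid, was at 51.1, 51.1, 54.0 and 47.3 CPM in mutants and at 41.0, 46.1, 43.6 and 43.9 CPM in controls. Mutants were all above controls, with a log2 fold change of 0.22 (SE 0.05, edgeR adjusted p = 0.0118) that was called in all 15 alternatives. Shark, a tyrosine kinase that acts downstream of the engulfment receptor Draper in glia, was at 19.7 ± 0.856 CPM in mutants and 17.5 ± 0.695 CPM in controls (log2 fold change 0.17, edgeR adjusted p = 0.0466). Leaving out mutant replicate 2, 3 or 4, or any 1 control, ended that call (adjusted p 0.0626 to 0.146). With all libraries it also ended by DESeq2's Wald test (adjusted p = 0.0948). In edgeR it ended without a filter on low counts (0.0640) and with the replicate block (0.120). The engulfment receptor gene drpr (0.06), its adaptor gene ced-6 (-0.06) and the axon destruction gene Sarm (-0.06) did not pass. Without mutant replicate 1, drpr was called at 0.12 and axed, named after its value was seen, at -0.47 (edgeR adjusted p = 0.0271 and 0.0397). With all libraries axed was at 22.0, 15.3, 19.2 and 13.4 CPM in mutants and at 18.8, 23.6, 23.8 and 22.9 CPM in controls.

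Of 14 tested genes reported as JNK or AP-1 targets 3 rose and 2 fell, where 6.12% of all tested genes rose and 8.66% fell, and 9 did not pass. The list had a median log2 fold change of 0.12, and 2 to 3 rose and 2 to 3 fell when 1 library was left out. Gadd45, a stress-response gene, was at 10.3, 12.7, 9.66 and 10.9 CPM in mutants and at 6.18, 5.83, 6.50 and 6.67 CPM in controls. All mutants were above all controls (log2 fold change 0.79, SE 0.09, edgeR adjusted p = 0.000187), and the call held in all 15 alternatives. The profilin gene chic was at 1609, 1879, 1787 and 1677 CPM in mutants and at 1567, 1366, 1355 and 1349 CPM in controls (log2 fold change 0.30, edgeR adjusted p = 0.00803), also called in all alternatives. The caspase inhibitor gene Diap1 had 0.15 (edgeR adjusted p = 0.0377), lost without any 1 of mutant replicates 2, 3 and 4 or control replicates 2, 3 and 4 (0.0707 to 0.118). With all libraries that call was also lost with the replicate block (edgeR adjusted p = 0.105).

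The 2 genes of that list that fell were Atf3 and dpp. Atf3, a bZIP factor that can pair with Jun in flies, was at 57.9, 44.7, 50.4 and 40.8 CPM in mutants and at 66.6, 72.0, 68.8 and 77.0 CPM in controls. Every mutant was below every control (log2 fold change -0.56, SE 0.10, edgeR adjusted p = 0.00727). The BMP ligand gene dpp was at 7.003 ± 0.844 CPM in mutants and 9.33 ± 0.591 CPM in controls (log2 fold change -0.42, edgeR adjusted p = 0.0124). Among genes that did not pass, the matrix metalloprotease gene Mmp1 was at 82.0, 156, 137 and 170.4 CPM in mutants and at 135, 88.7, 104 and 116 CPM in controls, where mutant replicate 1 was lowest of all 8. GstD1 had -0.23 (edgeR adjusted p = 0.0843) and passed without mutant replicate 1, at -0.32, and the filamin gene cher had 0.05. The cytokine genes upd1, upd2 and upd3 and the relaxin-like gene Ilp8 were too low to test, each with means of at most 0.172 CPM in either genotype.

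Of 12 tested bZIP factor genes other than kay and Jra 3 rose and 1, Atf3, fell, where 6.12% of all tested genes rose and 8.66% fell, with a list median of 0.09. When 1 library was left out, 1 to 5 rose. The ATF4 gene crc was at 641 ± 33.1 CPM in mutants and 543 ± 24.2 CPM in controls (log2 fold change 0.24, edgeR adjusted p = 0.00601), a call kept in all 15 alternatives. In the current annotation crc shares 2515 of its 3423 exonic bases with CG46314 on the same strand. Irbp18, a C/EBP-type partner of Xrp1, had 0.25 (edgeR adjusted p = 0.0356), and was lost without mutant replicate 2 or 3 or control replicate 1, 2 or 3 (0.0526 to 0.101). With all libraries Irbp18 was also lost with the replicate block (edgeR adjusted p = 0.0908). The gap gene gt, at 2.26 ± 0.201 CPM in mutants and 1.58 ± 0.0955 CPM in controls (edgeR adjusted p = 0.0308), was lost when mutant replicate 2, 3 or 4 or any 1 control was left out (0.0568 to 0.0954). With all libraries gt was also lost by DESeq2's Wald test (adjusted p = 0.0597). In edgeR it was lost without a filter on low counts (0.0595), with the replicate block (0.0875) and with 1 surrogate variable (0.0583). The abundant genes vri (0.19), cnc (-0.05) and Xrp1 (0.05) did not pass, and vri passed without mutant replicate 1, at 0.25 (edgeR adjusted p = 0.0256).

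**Figure D4:**
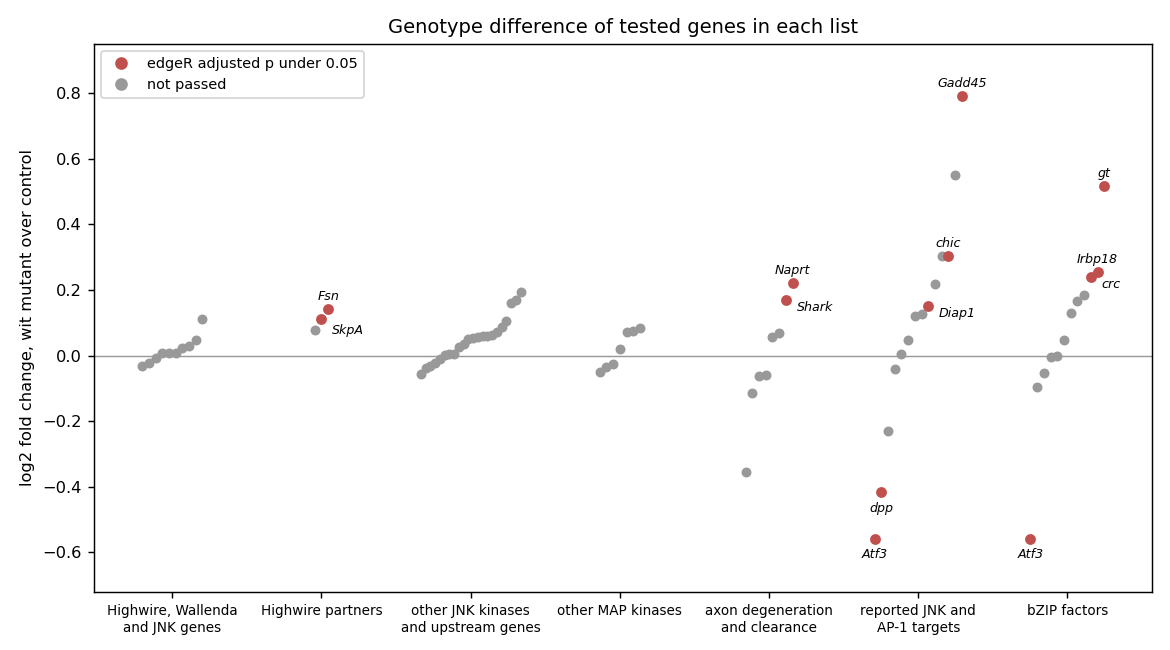
Log2 fold changes of mutant over control for every tested gene of the 10-gene set and the 6 related lists, 1 point per gene, with genes at an edgeR adjusted p under 0.05 named in red. The 10 genes lie between -0.03 and 0.11 with 0 called, and the called genes of the other lists run from -0.56 for Atf3 to 0.79 for Gadd45.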

How the data were processed

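The authors deposited estimated counts per gene for each library, and per the submitters' processing notes the tools were kallisto 0.43.0 and DESeq2, with no role stated for DESeq2, and the build BDGP6. Annotation, strand setting and summing of transcripts are not given in the sources used here. Per the labels' protocols, libraries of stranded mRNA were sequenced in pairs of 42 bp. Of the estimated counts 8.78% differed from a whole number by more than 0.01, and all were rounded. Names came from a table of identifiers (13948 of 14175 matched), and positions from Ensembl release 115 for BDGP6. Of 168 list entries 9 were not analysed here.

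After filterByExpr (minimum count 10), counts were scaled by TMM in edgeR 4.0.16 and tested with its robust quasi-likelihood test for genotype with no covariate, two-sided, with Benjamini-Hochberg adjustment over all genes. Intervals are 95% intervals from the quasi-likelihood standard error. DESeq2 1.42.0, sva 3.50.0 and limma 3.58.1, under R 4.3.3, served the alternatives, which were 7 other settings and leaving out each of 8 libraries. The test was checked on simulated counts. Pairs of libraries within a genotype differed by more than sampling noise (chi-square per degree of freedom 3.75 to 35.7). P-values set the genotype difference against the spread between pooled samples, and the spread between single animals was not measured.

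The 10 genes and the lists were chosen with earlier results of these data known. Named genes were the 10, wit, every called gene of the 6 related lists and up to 3 of their most abundant other genes. Other genes of these lists are said to be named after their values were seen. Marker and BMP target lists are given by counts, apart from Dad, some glia and hemocyte markers, and the tracheal markers beside msn. These were chosen after their values were seen. Of the other marker lists, imaginal discs had 1 gene higher and 3 lower of 9 tested, muscle 0 and 1 of 9, fat body 2 and 1 of 9, and trachea 1 and 0 of 6. The eye-colour gene st, marked by st1, was at 0.187 ± 0.035 CPM in mutants and 0.410 ± 0.034 CPM in controls. Promoter motifs were not analysed here.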

Additional observations from a re-analysis of the deposited data

Results flagged for a closer look

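Among 20 sets of 4 values, 10 genes in each of 2 genotypes, 1 had a library set apart from the other 3, and chance alone gives about 1 in 20. This was puc in control replicate 3, at 52.8 CPM, where the other controls lay between 51.9 and 52.0 CPM. Its gap to the next control, divided by the control range, was 0.935, but that range was 0.827 CPM, and the control SD of 0.764% of the mean was below the 2.62% that counting error gives.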

How the results depend on the processing

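Over the 15 alternatives, msn without mutant replicate 1 was the only call among the 10 genes (log2 fold change 0.20), and limma-voom, DESeq2 and both other filters called 0 of them. With 1 surrogate variable the sign turned for hiw (-0.026), msn (-0.0020) and Jra (-0.0057). Leaving out 1 library gave log2 fold changes of -0.024 to 0.043 for hiw, -0.022 to 0.013 for bsk, -0.057 to 0.011 for slpr, 0.061 to 0.20 for msn, -0.0048 to 0.031 for puc, -0.0040 to 0.021 for kay and -0.0040 to 0.069 for egr. The cause of these changes of sign was not tested, and all lie inside the 95% intervals of the report.

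Genes called higher over the whole table were 562 with all libraries, 989 by limma-voom and 304 to 1060 when 1 library was left out, highest without mutant replicate 1 and lowest without control replicate 2. Genes called lower were 795 with all libraries and 524 to 1124 when 1 library was left out. In the related lists 12 were called, and 7 to 21 when 1 library was left out.

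Libraries of the 2 genotypes share replicate numbers, but the numbers did not pair them: correlations of same-numbered deviations were -0.05, 0.04, -0.09 and -0.31. With the replicate number as a block, genes called higher were 301, the related lists held 7 calls, 0 of the 10 genes were called (lowest adjusted p 0.606), and Atf3 was at an edgeR adjusted p of 0.0528.

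The limits are these. The design has 4 pooled samples a genotype, controls carry 1 mutant allele, the tissue holds many cell types, and protein and phosphorylation were not measured. Loss of wit cannot be told apart from the exchange of a whole copy of chromosome 3.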
